A study of Mus musculus with 6 samples.

Results

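The transcripts of 9 ETS transcription factors, Erg, Fli1, Ets1, Ets2, Etv6, Elk3, Elf1, Elf2 and Gabpa, were followed in bEND.3 cells after knockdown of the lncRNA Gm39822. They were chosen by name, as ETS factors that endothelial cells are known to express, with earlier results of these data known. All 9 were found among the 49315 genes of the count table. These are mouse brain endothelial cells kept as an immortalized line, so all samples come from 1 line. Every culture was transfected with Lipofectamine 2000. In the GapmeR group, with 4 samples, the cells received an antisense LNA GapmeR against Gm39822 at 100 nM, a short oligonucleotide that directs RNase H to cleave its target RNA. The Negative Control group, with 2 samples here, received a control antisense LNA GapmeR at the same dose. Libraries were made after removal of ribosomal RNA, and reads were counted per gene. The labels do not say whether the samples of a group were separate cultures, so p-values measure the spread between these samples, which may be technical. The time between transfection and RNA extraction is not given in the sources used here.

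ETS proteins share a DNA-binding domain that reads a short core, GGAA, and they differ in partners, in regulation by kinases and in whether they activate or repress. ERG and FLI1 are close relatives that mark the endothelial lineage and keep junction, receptor and identity genes active, and ERG is also known to hold inflammatory genes down. ETS1 and ETS2 form another closely related pair, known for angiogenesis, proteases and the response to growth factor kinases. ELK3 works with SRF as a ternary complex factor, ETV6 is a repressor, ELF1 and ELF2 bind regulatory regions of vascular and blood genes, and GABPA is the DNA-binding subunit of GABP, which serves mitochondrial and housekeeping promoters.

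The depth of the GapmeR samples ranged from 30264086 to 37117934 counts, and the controls had 29261988 and 34266811 counts. The targeted RNA, Gm39822, was left with 2, 1, 4 and 2 counts after knockdown, against 61 and 56 in the controls (log2 fold change -4.82, standard error (SE) 0.41, edgeR adjusted p = 8.8e-08). All 10 endothelial markers had counts in every sample, and their summed level was 6133 to 7116 CPM (read counts scaled to library size, here with TMM factors) in the GapmeR samples and 8343 and 8583 CPM in the controls. The 10 macrophage markers summed to 224 and 205 CPM in GapmeR samples 1 and 2, 343 and 377 CPM in GapmeR samples 3 and 4, and 175 and 171 CPM in the controls. The 6 fibroblast markers summed to 92.0 CPM in GapmeR sample 3 and to between 15.9 and 22.9 CPM in the other samples. In bulk RNA, a change in the share of cells of a type and a change in RNA per cell cannot be told apart.

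Start sites of 7 of the 9 factors were listed in RefSeq with 250 bases of upstream sequence on GRCm38, the build of the counts, in 11 windows. Fli1 and Ets1 had no entry. The 4 windows of Erg and Ets2 are shown, since these were the factors that rose, together with that of Emcn, an endothelial gene that fell. Capitals mark the ETS core, GGAA on the strand shown or TTCC where it lies on the other strand.
Erg, window 1, minus strand, chr16:95586594-95586843: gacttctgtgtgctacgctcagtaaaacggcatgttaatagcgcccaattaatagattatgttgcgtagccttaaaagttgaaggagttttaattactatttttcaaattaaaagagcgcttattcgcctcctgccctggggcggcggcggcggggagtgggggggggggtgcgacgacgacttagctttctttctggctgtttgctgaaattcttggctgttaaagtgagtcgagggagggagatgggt
Erg, window 2, minus strand, chr16:95530366-95530615: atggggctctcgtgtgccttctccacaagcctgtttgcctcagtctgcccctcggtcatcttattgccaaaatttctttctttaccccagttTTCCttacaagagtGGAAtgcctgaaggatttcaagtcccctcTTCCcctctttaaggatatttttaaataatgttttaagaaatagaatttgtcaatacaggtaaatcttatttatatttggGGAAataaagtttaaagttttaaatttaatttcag
Erg, window 3, minus strand, chr16:95459349-95459598: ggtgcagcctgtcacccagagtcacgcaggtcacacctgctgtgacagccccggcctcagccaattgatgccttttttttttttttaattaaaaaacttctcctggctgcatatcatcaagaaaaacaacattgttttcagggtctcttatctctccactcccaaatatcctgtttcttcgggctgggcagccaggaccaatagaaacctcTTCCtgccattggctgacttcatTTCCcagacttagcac
Ets2, plus strand, chr16:95702157-95702406: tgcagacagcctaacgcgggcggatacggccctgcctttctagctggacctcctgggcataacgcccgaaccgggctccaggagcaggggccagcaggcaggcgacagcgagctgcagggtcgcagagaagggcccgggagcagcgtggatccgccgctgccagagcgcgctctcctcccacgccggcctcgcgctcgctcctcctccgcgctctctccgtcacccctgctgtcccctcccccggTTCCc
Emcn, plus strand, chr3:137340828-137341077: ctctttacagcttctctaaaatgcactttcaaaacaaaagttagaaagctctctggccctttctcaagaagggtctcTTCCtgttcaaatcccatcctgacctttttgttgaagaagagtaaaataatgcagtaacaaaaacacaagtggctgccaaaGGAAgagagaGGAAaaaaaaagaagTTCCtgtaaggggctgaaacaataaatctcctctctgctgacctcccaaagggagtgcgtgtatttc

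The upstream windows of Erg differed in this respect, with 0, 4 and 2 matches to GGAA on either strand, and the window of Ets2 held 1 match and that of Emcn 4. GGAA is so short that 93.4% of 32851 windows of this length held it, with a median of 3 matches. The longer form CAGGAAG, which contains GGAA, was in 10.8% of all windows and in 4 of the 11 windows of the ETS factors, window 3 of Erg among them. The form CCGGAAG was in 6.91% of all windows and in 1 window of the factors, that of Gabpa. These are matches of letters, and the counts do not show which start site a transcript used.

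After Gm39822 knockdown Erg and Ets2 rose, Fli1 and Ets1 fell, and none of the other 5 factors passed the test. The test was edgeR's quasi-likelihood F test, and genes with a Benjamini-Hochberg adjusted p below 0.05 were called. It called 4 of the 9 factors and 45.3% of all 18234 genes tested, so the share of factors called was near the background. All 9 passed the filter on low counts. The share of all genes called higher was 25.4% and the share called lower 20.0%, while 2 factors were called in each direction. The median log2 fold change was -0.13 over the 9 factors and 0.03 over all genes tested. Scaled by library size only, the median of all genes was 0.17 and 74.1% of the genes called were higher, against 55.9% with TMM scaling.

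**Figure D1:**
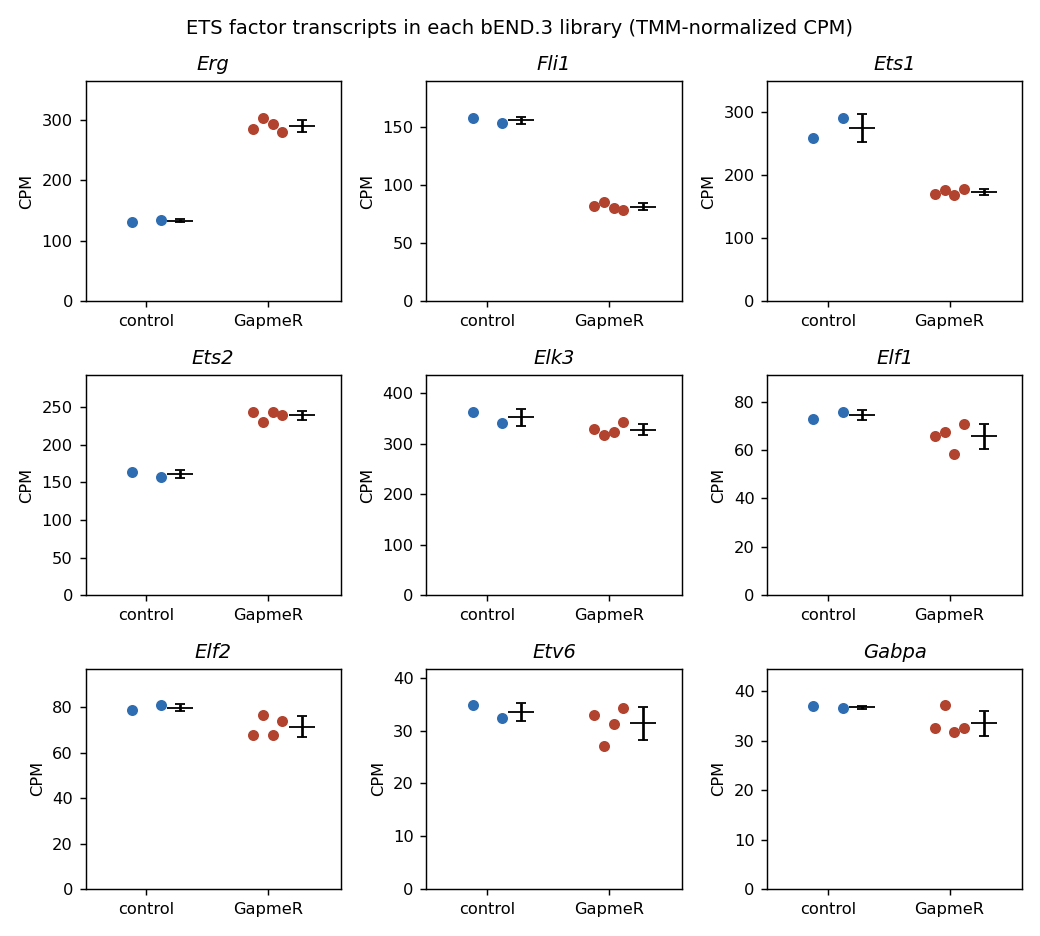
TMM-normalized CPM of the 9 ETS factors in each library, with 2 Negative Control samples in blue and 4 GapmeR samples in red. Black bars are the mean and SD, every axis starts at 0, and the groups of Erg, Fli1, Ets1 and Ets2 lie far apart compared with their spread.

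Reads on Erg (ENSMUSG00000040732) numbered 9610, 11797, 9055 and 9018 after knockdown (GapmeR samples 1 to 4, the order kept throughout) and 3589 and 4293 in the controls. After scaling this was 284, 303, 292 and 279 CPM after knockdown and 131 and 135 CPM in the controls. The lowest GapmeR sample was 145 CPM above the higher control, so the groups did not overlap. The mean rose from 133 ± 2.47 CPM in the controls (SD, n = 2) to 289 ± 10.5 CPM after knockdown (SD, n = 4) (log2 fold change 1.12, SE 0.07, edgeR adjusted p = 4.9e-09). Of all genes tested, 84.1% had a lower log2 fold change.

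Fli1 (ENSMUSG00000016087), a close relative of Erg, moved the other way. Its level was 81.7, 85.3, 80.6 and 78.3 CPM after knockdown and 158 and 154 CPM in the controls. All GapmeR samples lay at least 68.3 CPM below the lower control. The mean fell from 156 ± 3.00 CPM in the controls (SD, n = 2) to 81.5 ± 2.91 CPM after knockdown (SD, n = 4) (log2 fold change -0.93, SE 0.07, edgeR adjusted p = 1.3e-08). Of all genes tested, 5.07% had a lower log2 fold change.

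Ets1 (ENSMUSG00000032035), which drives protease and adhesion genes in angiogenic endothelium, had 170, 177, 168 and 178 CPM after knockdown and 260 and 292 CPM in the controls. The groups did not overlap, although the controls differed from each other more than the 4 GapmeR samples did. Ets1 fell by 37.2% of its mean, from 276 ± 22.3 CPM in the controls (SD, n = 2) to 173 ± 4.99 CPM after knockdown (SD, n = 4). This is a log2 fold change of -0.67 (SE 0.07, edgeR adjusted p = 1.5e-06).

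Ets2 (ENSMUSG00000022895), close to Ets1 in sequence and in its response to kinases, had 244, 230, 243 and 239 CPM after knockdown and 164 and 157 CPM in the controls. Again all GapmeR samples were above both controls. The mean rose from 161 ± 5.09 CPM in the controls (SD, n = 2) to 239 ± 6.36 CPM after knockdown (SD, n = 4) (log2 fold change 0.57, SE 0.07, edgeR adjusted p = 7.6e-06). Ets2 was 1.49-fold higher, so with a threshold of 1.5-fold added to the test 1 factor was higher (Erg) and 2 were lower (Fli1 and Ets1). By that rule 17.8% of all genes tested were higher and 7.62% lower.

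For each of these 4 factors a 2-sided exact permutation test gave p = 0.0667, the smallest that 4 samples against 2 allow. Each kept its direction and its call in all 14 other fits, which include the replicate block, other scalings and tests, and each sample left out. The log2 fold change stayed between 1.10 and 1.27 for Erg, -0.95 and -0.79 for Fli1, -0.73 and -0.52 for Ets1, and 0.56 and 0.72 for Ets2. Without both GapmeR samples 3 and 4, which had more counts on macrophage markers, the values were 1.17 for Erg, -0.88 for Fli1, -0.65 for Ets1 and 0.58 for Ets2, and all passed.

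The 4 factors lie as pairs of neighbours in the genome, and each pair moved together. On GRCm38, with RefSeq gene bounds, Fli1 lies on chromosome 9 from 32422204 to 32543432 and Ets1 from 32636241 to 32757820, with 92.8 kb between them. Erg lies on chromosome 16 from 95359169 to 95586600 and Ets2 from 95702407 to 95721049, 115.8 kb apart. In each pair the genes point away from each other, the first on the minus strand and the second on the plus strand. RefSeq lists no protein-coding gene in either gap, and 2 noncoding genes in the first and 3 in the second. The pair on chromosome 9 was the one that fell and the pair on chromosome 16 the one that rose. The pairs were described after the values of the genes had been seen, and whether position played a part was not tested.

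Other genes within 500 kb of these pairs were matched between RefSeq and the counts by symbol, so genes under differing symbols may be missing. The matched genes were few, and the counts called among them can be read only loosely against the 45.3% of all genes called. Around Erg and Ets2, 7 other genes were tested, of which 1 was higher and 6 were not called. The 3 of them with a mean of at least 1 CPM were Psmg1, at a log2 fold change of 0.00 (SE 0.10), Brwd1 at 0.14 (SE 0.09) and Hmgn1 at 0.04 (SE 0.07). These were named for their position, and none passed the test. Around Fli1 and Ets1, 3 other genes were tested, of which 1 was higher and 2 were not called, and the 1 called had 0 counts in both controls. The 2 not called, both with a mean of at least 1 CPM, were also named for their position. They were Gm3756 at 0.18 (SE 0.15) and Arhgap32 at -0.55 (SE 0.29, edgeR adjusted p = 0.13). Gabpa is also on chromosome 16, from 84834891 to 84863783, but 10495 kb from Erg. The remaining factors are on other chromosomes, Elf2 on 3 from 51252720 to 51340683, Etv6 on 6 from 134035700 to 134270158, Elk3 on 10 from 93247415 to 93311159 and Elf1 on 14 from 79481174 to 79582491.

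The ratio of 2 genes within a library does not depend on how libraries are scaled. The ratio of Erg to Fli1 read counts was 3.47, 3.55, 3.62 and 3.56 after knockdown and 0.830 and 0.876 in the controls. It was thus 4.17-fold higher after knockdown, with an SD on the log2 scale of 0.03 in the GapmeR samples and 0.05 in the controls. The ratio of Ets2 to Ets1 was 1.44, 1.30, 1.44 and 1.34 after knockdown and 0.632 and 0.539 in the controls, a 2.36-fold difference. In both pairs the order of the genes by counts was the opposite in the groups. Counts also depend on gene length. Per kb of exon, Erg was already above Fli1 in the controls, at a mean of 38.2 against 35.6 CPM per kb. The order of Ets2 and Ets1 was the opposite in the groups by that measure too. By contrast, the ratio of Elk3 to Gabpa, factors that did not pass the test, was between 8.50 and 10.5 after knockdown and 9.83 and 9.31 in the controls. The ratios were chosen after the values of the genes had been seen, and are given as a description.

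**Figure D2:**
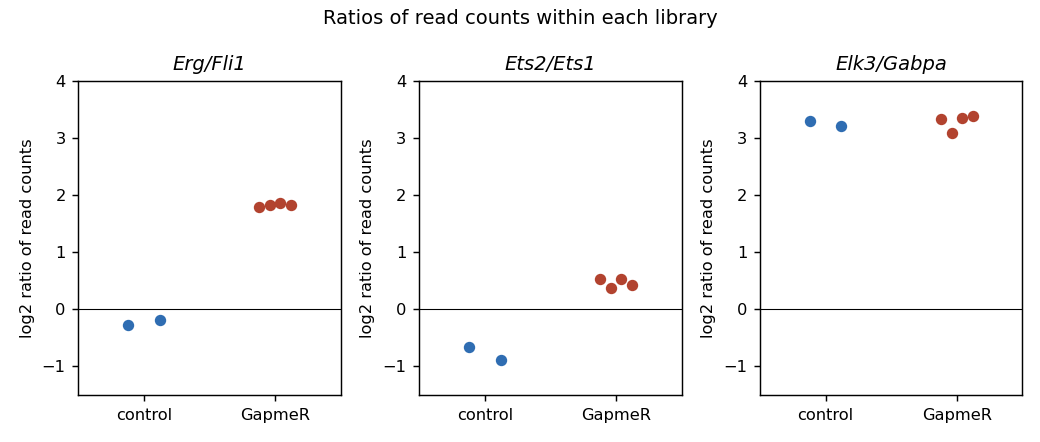
Log2 ratio of read counts of Erg to Fli1, Ets2 to Ets1 and Elk3 to Gabpa within each library, with controls in blue and GapmeR samples in red. The first 2 ratios lie below 0 in the controls and above 0 after knockdown, and the third overlaps between groups.

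The other 5 factors did not pass the test. Elk3, the most abundant by CPM in the controls, had 329, 316, 322 and 342 CPM after knockdown and 363 and 340 CPM in the controls. The highest GapmeR sample was above the lower control, so the groups overlapped. Its log2 fold change was -0.10 (95% interval -0.26 to 0.05, edgeR adjusted p = 0.25). Elk3 shares 1126 exon bases in the GRCm39 annotation with Cdk17 on the opposite strand, which had 262 CPM on average and was called higher at a log2 fold change of 0.22 (SE 0.07, edgeR adjusted p = 0.016).

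Elf1 had 66.0, 67.5, 58.6 and 70.6 CPM after knockdown and 73.0 and 76.0 CPM in the controls. Elf2 had 67.6, 76.6, 67.7 and 74.0 CPM after knockdown and 78.9 and 80.9 CPM in the controls. With TMM scaling, all GapmeR samples of both genes were below both controls, by 2.44 CPM for Elf1 and 2.21 CPM for Elf2. Each distance is less than the SD of the GapmeR samples. Their log2 fold changes were -0.18 for Elf1 (95% interval -0.35 to -0.01, edgeR adjusted p = 0.072) and -0.16 for Elf2 (95% interval -0.32 to -0.00, edgeR adjusted p = 0.094). Without GapmeR sample 2 both passed, at -0.19 each, with an adjusted p of 0.042 for Elf1 and 0.020 for Elf2 from edgeR. Elf1 also passed without GapmeR sample 4, at -0.22 (edgeR adjusted p = 0.047). Scaled by library size only, both were near 0, Elf1 at -0.033 (edgeR adjusted p = 0.77) and Elf2 at -0.010 (edgeR adjusted p = 0.93).

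Gabpa had 32.6, 37.2, 31.7 and 32.7 CPM after knockdown and 37 and 36.6 CPM in the controls. GapmeR sample 2 was above both controls and the other 3 were below them. The log2 fold change was -0.13 (95% interval -0.31 to 0.04, edgeR adjusted p = 0.21), and without GapmeR sample 2 it was -0.18 and passed (edgeR adjusted p = 0.033). Gabpa shares 1995 exon bases in the GRCm39 annotation with Atp5j on the opposite strand, a subunit gene of ATP synthase at a mean of 169 CPM. Whether the counts used strand is not given in the sources used here, so reads of the 2 genes may not have been told apart. Elf1 shares 404 exon bases in the same way with Wbp4, which was called lower at -0.21 (SE 0.07, edgeR adjusted p = 0.027). Fli1 shares 123 exon bases with a noncoding gene on the opposite strand that is not in the count table, and Erg, Ets1 and Ets2 share none with another gene.

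Etv6 had 33.0, 27.2, 31.3 and 34.3 CPM after knockdown and 34.8 and 32.4 CPM in the controls, and its groups overlapped. Its log2 fold change was -0.10 (95% interval -0.29 to 0.10, edgeR adjusted p = 0.42). Scaled by library size only, the log2 fold changes of Etv6, Elk3 and Gabpa turned to 0.050, 0.043 and 0.017, and none passed. With TMM scaling, groups did not overlap in 6 of the 9 factors, 2 with all GapmeR samples above the controls and 4 below. Of all genes tested, 59.2% did not overlap (31.9% above and 27.3% below). Elf1 and Elf2, among the factors below, had log2 fold changes of -0.033 and -0.010 with library size only.

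**Figure D3:**
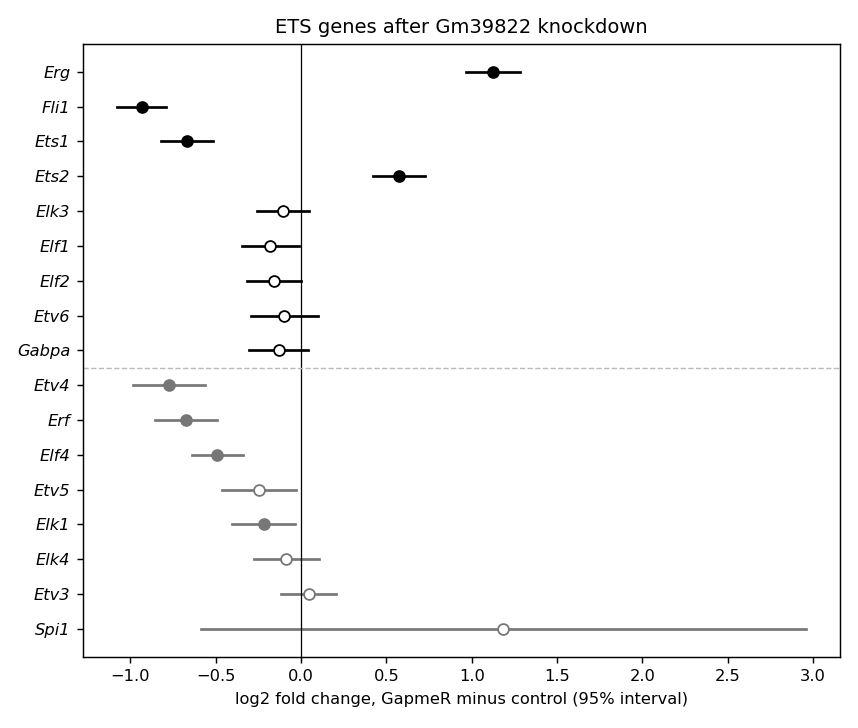
Log2 fold change, GapmeR minus control, with its 95% interval from edgeR's quasi-likelihood test, for the 9 factors (black, above the dashed line) and for other ETS genes with a mean of at least 1 CPM apart from Elf3 (grey). Filled points passed the adjusted p-value of 0.05. Erg is at 1.12 and Fli1 at -0.93, and the intervals of Elk3, Etv6 and Gabpa include 0.

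Levels were compared between genes as CPM per kb of union exon length in the GRCm39 annotation, which does not take into account which isoforms the cells used. In the controls Elk3 was highest at 60.5 ± 2.79 CPM per kb (SD, n = 2), followed by Erg at 38.2 ± 0.712, Fli1 at 35.6 ± 0.687, Ets1 at 32.5 ± 2.62 and Ets2 at 25.9 ± 0.820 CPM per kb. The distance of Fli1 from Ets1 was close to the spread of Ets1. The other 4 were far lower, from Elf1 at 9.55 ± 0.263 and Elf2 at 8.21 ± 0.147 to Gabpa at 4.37 ± 0.035 and Etv6 at 4.17 ± 0.210 CPM per kb, and Gabpa and Etv6 differed by about their spread. After knockdown Erg was highest at 83.3 ± 3.02 CPM per kb (SD, n = 4), followed by Elk3 at 56.3 ± 1.91, Ets2 at 38.5 ± 1.02, Ets1 at 20.4 ± 0.587 and Fli1 at 18.6 ± 0.665 CPM per kb. The lower 4 kept their order, and Gabpa and Etv6 were separated by less than the SD of either.

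By the same measure, Erg made up 17.2% and 17.7% of the summed level of the 9 factors in the controls and 34.1%, 35.8%, 35.1% and 33.3% in GapmeR samples 1 to 4. The share of Fli1 was 16.4% and 16.1% in the controls and between 7.42% and 8.01% after knockdown. The sum itself was 220 and 218 CPM per kb in the controls and between 239 and 243 CPM per kb after knockdown. Of the summed level of all 23 ETS genes that passed the filter, the 9 factors held 80.7% and 79.9% in the controls and between 85.1% and 86.0% after knockdown.

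**Figure D4:**
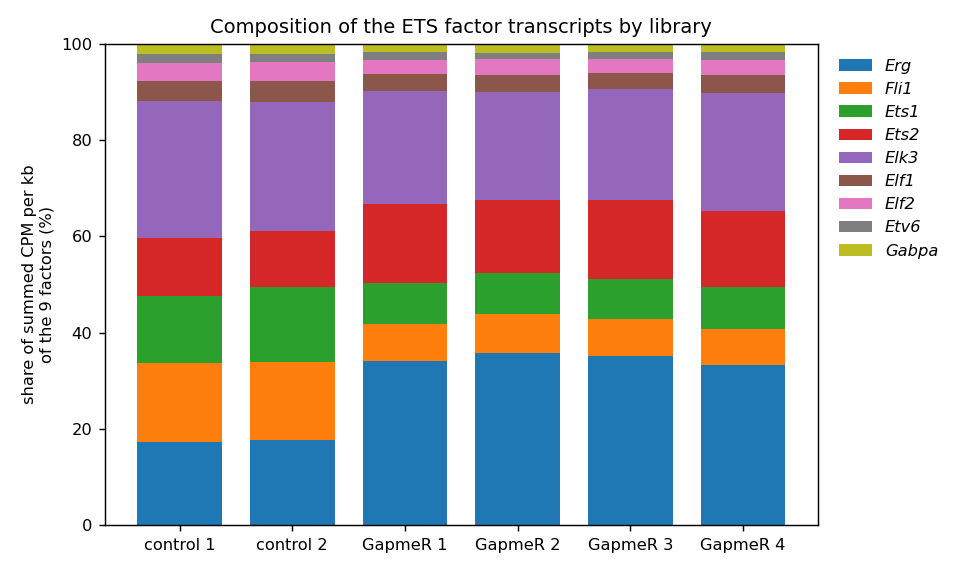
Share of each factor in the summed CPM per kb of the 9 factors, in percent, for each library. The Erg segment is 17.2% and 17.7% in the controls and 33.3% to 35.8% in the GapmeR samples, while the Fli1 and Ets1 segments are smaller after knockdown.

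Among 18 other ETS genes, 14 passed the filter. Of these, 5 were higher, 4 lower and 5 not called, where 25.4% of all genes tested were higher and 20.0% lower. The 5 that were higher had at most 3 counts in either control and passed the filter only through the GapmeR samples, so their number was set by the filter, and with at least 10 counts in every sample it was 0. The 4 that fell were expressed genes, and their number was 3 with DESeq2's Wald test or limma-voom and 5 with the replicate block. Etv4, a growth factor response gene of the PEA3 group, fell from 21.5 ± 0.388 CPM in the controls (SD, n = 2) to 12.6 ± 1.17 CPM after knockdown (SD, n = 4) (log2 fold change -0.78, SE 0.10, edgeR adjusted p = 1.1e-05). Erf, an ETS repressor controlled by ERK, had 63.7, 76.6, 70.4 and 63.1 CPM after knockdown and 103 and 116 CPM in the controls, with a log2 fold change of -0.68 (SE 0.09). Elf4 fell from 71.9 ± 1.27 CPM in the controls (SD, n = 2) to 51.2 ± 2.54 CPM after knockdown (SD, n = 4), and the change of Elk1, a ternary complex factor like Elk3, was small at -0.22 (SE 0.09, edgeR adjusted p = 0.049). Etv5, at -0.25, Elk4, at -0.09, and Etv3, at 0.05, did not pass, nor did Etv1, at -0.78 (SE 0.39).

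The 5 that rose, Elf3, Elf5, Spib, Spdef and Etv2, had few or no counts in the controls. Elf3, an ETS factor of epithelia, had 79, 87, 85 and 91 counts after knockdown and 1 and 0 in the controls, a ratio of 149 with a 95% counting interval of 26.6 to 5902. With 38, 50, 32 and 45 counts after knockdown and 0 in each control, Elf5, another epithelial factor, was higher by at least 11-fold. Spib, a lymphoid factor, was higher by at least 2.91-fold, on 6 to 17 counts. Without Negative Control sample 2, 3 other ETS genes were called higher in place of 5. These bounds take 3 counts per library as the limit that a count of 0 allows, and cover counting error only. Even after knockdown the level of Elf3 was 0.863 CPM per kb, against 83.3 for Erg.

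For Spi1, the ETS factor that defines macrophages, 40, 32, 114 and 105 counts were found after knockdown and 31 and 26 in the controls. Its log2 fold change of 1.19 did not pass (SE 0.73, edgeR adjusted p = 0.24). The samples with the higher counts were GapmeR 3 and 4, which also had the higher sums of macrophage markers given above. Of the 10 macrophage markers, Mrc1 and Cd68 were higher and 8 were not called, where 25.4% of all genes tested were higher. With GapmeR sample 2 left out, 4 of these markers were higher. The part of these markers' cells in other values was not tested, and the 4 called factors passed without both of these samples.

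Genes of proteins that work with ETS factors were called in both directions. This list and the gene lists below were chosen with earlier results of these data known, so their counts are a description. Of 24 partner and cofactor genes, 5 were higher, 10 lower and 9 not called, where 25.4% of all genes were higher and 20.0% lower, and the median log2 fold change was -0.12. Tal1, which binds with ETS and GATA factors at vascular and blood enhancers, had 47.2, 47.0, 42.1 and 46.8 CPM after knockdown and 77.2 and 77.6 CPM in the controls (log2 fold change -0.76, SE 0.07, edgeR adjusted p = 3.2e-07). Lyl1, its close relative, rose from 10.0 ± 0.625 CPM in the controls (SD, n = 2) to 15.9 ± 1.80 CPM after knockdown (SD, n = 4), at 0.66 (SE 0.12). Daxx, a nuclear protein that binds ETS1, changed by -0.78 (SE 0.08) and the corepressor Tle1 by -0.70 (SE 0.09), and both passed. Scaled by library size only, 5 partner genes in place of 10 were lower, and without Negative Control sample 2 there were 6 lower and 3 higher.

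Endothelial genes known to be driven by ETS factors, with receptors, junction proteins and transcription factors among them, were lower more often than higher. Of 34 such genes, all tested, 17 were lower, 5 higher and 12 not called, with a median log2 fold change of -0.21, where 20.0% of all genes were lower and 25.4% higher. Angpt2, a secreted antagonist of the receptor TEK, had 15.7, 10.7, 13.7 and 10.8 CPM after knockdown and 41.5 and 51.1 CPM in the controls (log2 fold change -1.87, SE 0.15, edgeR adjusted p = 3.8e-06). Emcn, a sialomucin of the endothelial surface, had 107, 95.3, 103 and 108 CPM after knockdown and 270 and 249 CPM in the controls (log2 fold change -1.33, SE 0.07, edgeR adjusted p = 5.4e-10).

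Sox17, an arterial transcription factor, fell from 194 ± 7.09 CPM in the controls (SD, n = 2) to 107 ± 7.09 CPM after knockdown (SD, n = 4), and Esam, an adhesion molecule of endothelial junctions, from 622 ± 12.6 CPM in the controls (SD, n = 2) to 401 ± 18.0 CPM after knockdown (SD, n = 4). Cdh5, which encodes VE-cadherin and is a classical target of ERG and FLI1, changed by -0.51 (SE 0.09, edgeR adjusted p = 0.00035). Its 4 GapmeR samples had 1828, 1472, 1830 and 1802 CPM and its controls 2542 and 2383 CPM. The 5 genes that rose, named after their values were seen, were Sox18, Sox7, Clec14a, Egfl7 and Aplnr, so the 3 SOXF genes were split, with Sox18 at 0.62 (SE 0.08) and Sox7 at 0.53 (SE 0.11) against Sox17 at -0.86 (SE 0.07). The number that rose was 3 with the replicate block, without any 1 of GapmeR samples 1, 3 and 4 or of the controls, and without both GapmeR samples 3 and 4, and it was 8 with library size only. The number that fell was 17 without both GapmeR samples 3 and 4 between 12 and 18 with 1 sample left out, and 12 with library size only.

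**Figure D5:**
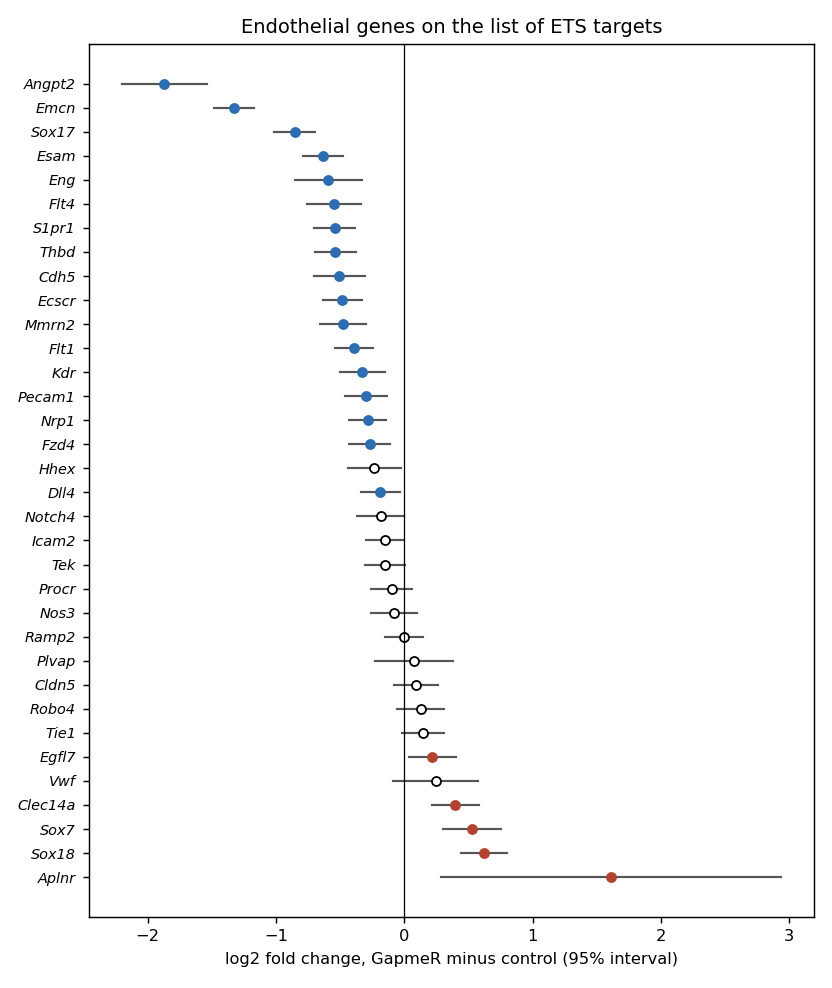
Log2 fold change, GapmeR minus control, with its 95% interval from edgeR, for 34 endothelial genes listed as ETS targets. Blue points were lower and red points higher with an adjusted p below 0.05, and open points did not pass. The 17 blue points run from Angpt2 at -1.87 to Dll4 at -0.19.

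Protease and matrix genes linked to ETS1 were lower in 8 of 12 tested genes and higher in 2, against 20.0% and 25.4% of all genes, with a median log2 fold change of -0.68. Mmp13, a collagenase, fell from 15.1 ± 0.306 CPM in the controls (SD, n = 2) to 2.95 ± 0.335 CPM after knockdown (SD, n = 4) (log2 fold change -2.35, SE 0.13, edgeR adjusted p = 4.8e-10). Tnc, the matrix protein tenascin C, changed by -1.28 (SE 0.09), Plaur, the urokinase receptor, by -1.08 (SE 0.07) and Itgb3, an integrin subunit, by -0.83 (SE 0.08), and all 3 passed. Mmp3, a stromelysin named after its values were seen, was among those that rose. With the replicate block, and without GapmeR sample 4 or Negative Control sample 2, 1 gene of this list rose in place of 2.

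Targets of ternary complex factors or of SRF, and genes linked to Gabpa, were also counted. Elk3 and Gabpa themselves were not called, and the list with SRF targets was not limited to genes of Elk3. Of 13 ternary complex factor and SRF targets, 5 were lower, 1 was higher and 7 were not called. The share called in either direction was near the 45.3% of all genes. By direction, 20.0% of all genes were lower and 25.4% higher, so the called genes of this list leaned lower. Nr4a1, an immediate early nuclear receptor, had 28.7, 34.1, 31.1 and 37.6 CPM after knockdown and 128 and 135 CPM in the controls (log2 fold change -2.0, SE 0.09, edgeR adjusted p = 7.7e-11). Fos changed by -0.77 (SE 0.11) and Junb by -0.63 (SE 0.07), while Egr2 rose by 1.39 (SE 0.25) from a level near 1 CPM.

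Of 12 GABP targets with a role in mitochondrial gene expression, 3 were higher, 1 lower and 8 not called, with a median log2 fold change of -0.01. The share higher was near the 25.4% of all genes, and 20.0% of all genes were lower. Tfb2m, a mitochondrial transcription factor, rose from 7.07 ± 0.287 CPM in the controls (SD, n = 2) to 13.6 ± 0.641 CPM after knockdown (SD, n = 4), at 0.94 (SE 0.11, edgeR adjusted p = 3.3e-06). Tfb1m changed by 0.87 (SE 0.22) and Polrmt, the mitochondrial RNA polymerase, by 0.46 (SE 0.08), and both passed. The 1 that was lower, Cycs, had a log2 fold change of -0.18 (edgeR adjusted p = 0.042) and was called in neither the fits with other scalings or filters nor the replicate block. With any 1 sample other than GapmeR 2 left out, no gene of the list was called lower, and without GapmeR 2 the number was 3. Gabpb1, a partner subunit of Gabpa named after its values were seen, rose from 35.2 ± 1.44 CPM in the controls (SD, n = 2) to 46.5 ± 2.59 CPM after knockdown (SD, n = 4).

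A list of genes tied to inflammation that ERG may restrain, called ERG-restrained below, held 12 tested genes. Restraint by ERG was not checked for each of them. Of these, 6 were lower, 2 higher and 4 not called, with a median log2 fold change of -0.35. Among all genes, 20.0% were lower and 25.4% higher. The study itself reported lower Vcam1, Sele, Il6 and Ccl2 transcripts from its RNA-Seq of this knockdown. It also measured VCAM-1 and several cytokines in these cells by other assays. The list is therefore not independent evidence of direction. Selp, the adhesion receptor P-selectin, had 60.6, 51.9, 57.3 and 57.6 CPM after knockdown and 191 and 195 CPM in the controls, and Cxcl10, Vcam1 and Il6 had log2 fold changes of -1.29, -1.21 and -1.10. The higher ones, named after their values were seen, were Birc3 and Tnfaip3. With DESeq2's Wald test, with no filter, with the replicate block, and without any 1 of GapmeR samples 1 and 4 and the controls, 1 gene of this list was higher.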

How the data were processed

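RNA-Seq counts of bEND.3 cells, from 4 GapmeR and 2 Negative Control samples, were analysed as deposited. The authors trimmed the reads, aligned them to mm10 with STAR and counted reads per Ensembl gene, and the deposited values are raw counts, neither normalized nor filtered. The submitters' processing notes name Trimmomatic 0.36, STAR 2.5.2b and Subread 1.5.2, and the strand setting is not given in the sources used here. A further 1 column of counts matched no sample given here and was not used.

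Groups were taken from the sample titles. Genes were kept if 2 or more samples had 5 or more counts, scaled by TMM and tested with edgeR 4.0.16 (robust quasi-likelihood, Benjamini-Hochberg adjustment over all genes) in R 4.3.3. The study used DESeq2, which was an alternative here (version 1.42.0), as were limma-voom (limma 3.58.1), other scalings, other filters, a 1.5-fold threshold, the replicate block and each sample left out. Intervals of 95% use the standard error, which is the log2 fold change divided by the root of F. Gene lengths come from GENCODE for GRCm39, joined by Ensembl identifier, and positions and promoters from RefSeq on GRCm38. No 2 samples agreed within sampling noise (chi-square per degree of freedom of at least 5.87 within groups).

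The factors and gene lists were chosen with earlier results of these data known. Named genes are all 9 factors, Gm39822, other ETS genes past the filter (in full at a mean of 1 CPM or more), and, from each list, the 4 or fewer called genes of largest absolute log2 fold change and mean of 1 CPM or more. Genes outside this rule are named as such or by position. On simulated counts, with 186 changed genes among 18017 tested, edgeR recovered 147, and 120 of the 123 that averaged 100 counts or more. Of its 162 calls 15 were false, or 9.26%, more than the 5% nominal rate, and DESeq2's share was 10.8%. The limit set for this check, 10%, was raised to 15% after DESeq2 exceeded it.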

Additional observations from a re-analysis of the deposited data

Results flagged for a closer look

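Samples far from the others of their group were looked for in the 4 GapmeR values of 49 genes, and 3 were found, where chance gives about 1 group in 20. Gabpa was highest in GapmeR 2, at 37.2 CPM, with the next sample at 32.7 CPM and the lowest at 31.7 CPM. Cdh5 was lowest in GapmeR 2, at 1472 CPM, with the other samples at 1802 CPM or more. Tal1 was lowest in GapmeR 3, at 42.1 CPM, with the next sample at 46.8 CPM. In Cdh5 and Tal1 these samples and all others of the group were below both controls.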

How the results depend on the processing

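The directions and calls of Gm39822, Erg, Fli1, Ets1 and Ets2 held in every other fit that gave a value. Ets2 did not pass the added 1.5-fold threshold. Gm39822 was removed by the filter, and has no value, with at least 10 counts in every sample and without either control, so its call was not checked with a control left out. Scaled by library size only, the log2 fold changes of Etv6, Elk3 and Gabpa reversed to 0.050, 0.043 and 0.017, none past the threshold. Those of Elf1 and Elf2 shrank to -0.033 and -0.010, and the number of all genes lower was 2135 in place of 3643.

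When 1 sample at a time was removed, the log2 fold change ranged from -0.22 to -0.11 for Elf1, from -0.19 to -0.11 for Elf2 and from -0.18 to -0.085 for Gabpa. Elf1 passed without GapmeR 2 or GapmeR 4, and Elf2 and Gabpa without GapmeR 2, so that 2 to 5 of the ETS factors were lower. The number of all genes lower was 1930 to 3949, with the low values without Negative Control 1 (2262) or 2 (1930), where the lone control is assumed to vary like the other group. With a 1.5-fold threshold, 1390 genes were lower and 1 ETS factor higher.

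Counts of the lists, higher or lower, moved as follows when samples were left out in turn: other ETS genes 3 to 6 higher, partners 3 to 5 higher and 6 to 10 lower, endothelial targets 3 to 7 higher, ETS1 targets 1 to 3 higher, GABP targets 0 to 3 lower, ERG-restrained genes 1 to 2 higher, endothelial markers 0 to 1 higher, macrophage markers 1 to 4 higher and 0 to 1 lower, and fibroblast markers 0 to 1 lower. With library size only, 5 partners were lower, 8 endothelial targets higher, 0 GABP targets lower and 2 endothelial markers higher. With DESeq2 size factors, 0 GABP targets were lower. With DESeq2's Wald test, 2 GABP targets were lower, 1 ERG-restrained gene and 4 macrophage markers higher. With limma-voom, 2 GABP targets and 1 fibroblast marker were lower. With no filter, 0 GABP targets were lower, 1 ERG-restrained gene and 4 macrophage markers higher, and 1 macrophage and 1 fibroblast marker lower. With at least 10 counts in every sample, 0 other ETS genes and 0 mural markers were higher (most were removed), 1 endothelial marker was higher and 0 GABP targets lower. Without both GapmeR 3 and GapmeR 4, an alternative chosen after seeing the data, 3 endothelial targets, 1 ETS1 target and 1 ERG-restrained gene were higher, and 0 GABP targets, 1 macrophage and 1 fibroblast marker lower. Apart from those shown by construction, the causes were not tested.

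Same-numbered samples share only a number, and their deviations from the group means correlated at -0.11 and 0.17 over 8870 genes, which are not independent replicates. A replicate block on these numbers leaves 1 residual degree of freedom. It called 7962 genes in place of 8268 and left the calls of the 9 factors as they were. With it, 3 endothelial targets, 1 ETS1 target and 1 ERG-restrained gene were higher, and 0 GABP targets, 1 macrophage and 1 fibroblast marker lower. With 2 controls, the design cannot show an exact p below 0.0667.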

Other observations

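Markers of mural cells, the smooth muscle cells and pericytes that surround vessels, were at low levels. After knockdown 2 of the 6 tested were called higher, a share near the 25.4% of all genes tested. The 8 markers summed to 8.50, 8.60, 12.9 and 9.66 CPM in GapmeR samples 1 to 4 and to 2.04 and 1.94 CPM in the controls. The called markers were Myh11 and Tagln, which made up most of the rise in this sum. Myh11 is the smooth muscle myosin heavy chain and had 5.37, 5.39, 5.93 and 5.85 CPM after knockdown and 0.365 and 0.251 CPM in the controls (log2 fold change 4.19, SE 0.24, edgeR adjusted p = 9.9e-10). Tagln rose as well, at 1.96 (SE 0.35, edgeR adjusted p = 0.00024), whereas Acta2, Pdgfrb, Rgs5 and Cspg4 did not pass, and Des and Cnn1 had at most 4 counts in any sample. These 6 were named to complete the list. The sum of fibroblast markers was high in GapmeR sample 3 only, while Myh11 was close to the same level in all 4 GapmeR samples.

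Of the 10 endothelial markers, all of which are also on the list of ETS targets, 6 were lower and 4 were not called by edgeR. Among all genes tested, 20.0% were lower and 25.4% higher. Emcn, Esam, Eng and Cdh5 had the largest changes. Eng, a coreceptor of the BMP and TGF-beta pathway, had 458, 327, 468 and 436 CPM after knockdown and 641 and 631 CPM in the controls.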
